A study of Bos taurus with 6 samples.

Results

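The comparison described here set day 42 against day 21 of chondrogenic culture, in the presence of transforming growth factor beta 3 (TGF-beta3) and without mechanical loading. The cells were bovine bone marrow mesenchymal stem cells (MSCs) cast in agarose hydrogel and kept in a defined medium with TGF-beta3 for 21 or 42 days. Each day had 1 array, so no p-value, standard error or replicate spread could be computed, and precision is limited by having a single array a day. Probe sets entered if their signal intensity was over 50 on at least 1 of the 2 arrays, which held for 11513 of the 24016 that were not controls. With 1 probe set taken per gene, they included 5831 of 9155 named genes. The other 4 arrays of the series were MSCs in the same gel without TGF-beta3 at days 3, 21 and 42, and a TGF-beta3 construct that was grown for 21 days and then compressed dynamically for a further 21 days in TGF-beta3, up to day 42. They are used below only to place the values. Both arrays compared thus share the agarose, the defined medium and TGF-beta3, and differ in time. Donors, and any pooling of constructs, are not given in the sources used here.

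TGF-beta3 acts through a pair of serine/threonine kinase receptors and SMAD proteins. In MSCs it starts chondrogenesis, in which cells pass from division and a fibroblastic, contractile state to secreting a matrix of type II collagen and aggrecan. Cartilage cells of the growth plate later enlarge (hypertrophy), make type X collagen and prepare the matrix for mineral, while cells of permanent cartilage do not.

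Hybridisation spikes, foreign transcripts added in equal amount to each hybridisation, were brighter at day 42, and so were the brightest genes. The median signal of 18 spike probe sets was 3212 at day 21 and 7304 at day 42. The median of their 18 log2 ratios was 1.24, with a range of 1.07 to 1.30. Over all 11513 probe sets the median log2 ratio was 0.00. It was also above 0 among the dimmest: with a mean log2 signal between 5 and 6 the median was 0.36 (0.24 after quantile normalization). Between 7 and 8 it was -0.13, between 12 and 13 it was 0.73, and from 13 upwards 1.02. Each log2 ratio below is therefore given on the authors' scaling and, where it matters, after quantile normalization, which left the brightest class at a median of 0.02. Scaling to the spikes instead would lower every log2 ratio by 1.24 and turn any difference between 0 and 1.24 to lower at day 42. The 3 prime to 5 prime signal ratio of GAPDH, a measure of RNA integrity, was 1.51 at day 21 and 2.15 at day 42. The part of these technical values in the results was not tested.

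**Figure D1:**
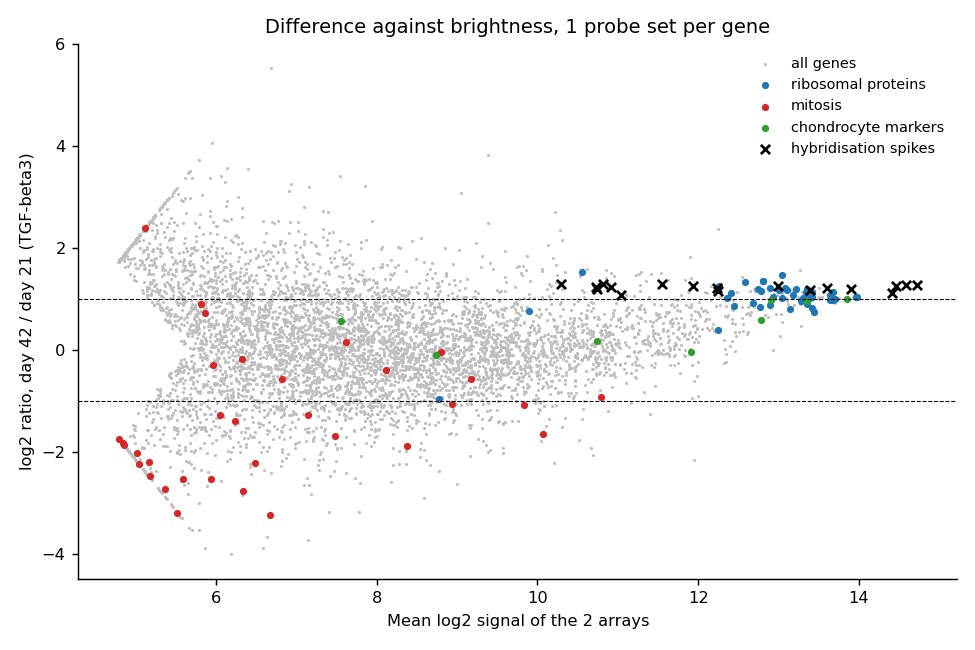
Log2 ratio of day 42 to day 21 with TGF-beta3 (vertical axis) against the mean log2 signal of the 2 arrays (horizontal axis), 1 point per gene, with 3 gene lists and the 18 spikes marked. Dashed lines are 2-fold. The spikes and the bright ribosomal protein genes lie near a log2 ratio of 1, and most mitosis genes lie below 0.

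A gene was counted as higher or lower at a 2-fold difference, with signals under a floor of 15.1 (the 40th percentile of all values) set to it. At day 42, 2162 probe sets (18.8%) were higher and 1950 (16.9%) lower. Of the probe sets, 64.3% stayed within 2-fold. Both shares were smaller among the 8521 probe sets over 50 on both arrays, at 9.90% higher and 11.3% lower. Of genes, 1119 (19.2%) were higher and 725 (12.4%) lower, the background for the list counts below. A gene over 50 on 1 day alone has its direction fixed by its entry. For the 4678 genes over 50 on both arrays these shares were 11.5% and 9.11%. Under all 4 scalings tried (the authors', median centring, quantile normalization and spikes), 148 genes (2.54%) were higher and 654 (11.2%) lower, and of probe sets 2.79% and 15.8%. Quantile normalization alone gave 18.3% of genes higher and 12% lower, and the spike scaling 2.54% and 55.5%. The spike scaling lowers every ratio by the same amount, so under it no lower call can be lost. Different probe sets of a gene are the only repeat measurement here. Among 926 genes with several probe sets over 50 on both arrays, the median gap between a gene's highest and lowest log2 ratio was 0.56. Of 315 such genes with a probe set past 2-fold, 235 had all probe sets on the same side of 0. At the entry threshold, the dimmest member had a signal of 50.003 at day 42 and 4.90 at day 21. Just outside it lay a probe set of DCP1A, with 49.992 at day 21 and 19.6 at day 42.

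Genes of cell division were lower at day 42. Of 33 mitosis genes compared, 22 were lower and 1 was higher, with a median log2 ratio of -1.65 (-1.62 after quantile normalization), beside 12.4% lower, 19.2% higher and a median of 0.11 over all genes. Of those 33, 16 were over 50 at day 21 alone, so their entry fixed the direction, and 3 at day 42 alone. Among the 14 over 50 on both arrays, 6 were lower and none higher, with a median of -0.75, beside 9.11% lower over all such genes. The DNA replication list was less one-sided, with 9 of 26 lower and 4 higher and a median of -0.60. Of its 14 genes over 50 on both arrays 1 was lower and none higher.

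RRM2, the ribonucleotide reductase subunit that makes DNA precursors, had a signal of 368 at day 21 and 24.9 at day 42 (14.7-fold lower). It was 69.8 on the loaded day 42 array and at most 9.19 on the 3 arrays without TGF-beta3. The day 21 TGF-beta3 array thus stood above all others. PCLAF, a PCNA-binding protein of replicating cells, went from 222 to 6.44, at least 14.7-fold lower, and was 81.3 on the loaded array. CDCA8, of the chromosomal passenger complex that corrects chromosome attachment, went from 315 to 33.2 (9.48-fold lower, loaded array 140). NUSAP1, a spindle protein, was at least 9.13-fold lower (138 to 10.8), and cyclin A2 (CCNA2), which acts in S phase, at least 5.52-fold (83.6 to 7.39). The mitotic kinase CDK1 and its partner cyclin B1 (CCNB1) were 6.60-fold and 5.58-fold lower, from 106 to 16.04 and from 85.3 to 15.3. MIS12, a kinetochore protein, was 7.19-fold lower. Of the 2 arrays compared, each of these genes was over 50 at day 21 alone, so its entry fixed the direction. Among the 14 mitosis genes over 50 on both arrays, 6 were lower and none higher. They included UBE2C (641 to 173), BIRC5 (321 to 99.2) and STMN1 (1911 to 607).

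RRM2, PCLAF, CDCA8 and CCNA2 were under the floor on all 3 arrays without TGF-beta3, whereas MIS12 lay between 114 and 171 there. Between days 21 and 42 without TGF-beta3, 13 of the 33 mitosis genes were under the floor on both days, 5 were lower and 1 higher. In a bulk sample, fewer dividing cells and less of these transcripts per cell cannot be told apart. Higher at day 42 were the ligase LIG1, which joins DNA fragments (29.3 to 168), the licensing factor CDT1 (20.2 to 90.6) and the ubiquitin-conjugating UBE2S (5.70 to 79.8). Each passed the entry threshold at day 42 alone, so its entry fixed the direction. Other probe sets of LIG1 and CDT1, below that threshold, differed less. They had log2 ratios of 0.27 and 0.434 (a bound) for LIG1 and 0.529 for CDT1. After quantile normalization these were 0.004, 0.066 and 0.121. In the list of arrest and p53 target genes 3 of 17 were higher and 3 lower. All 17 were over 50 on both arrays, where 11.5% of genes were higher and 9.11% lower. SESN1, a stress-induced sestrin, was 4.81-fold higher and the CDK inhibitor CDKN2C 2.31-fold higher (log2 -0.25 on the loaded array). Dimmer SESN1 probe sets, below the entry threshold, had log2 ratios of -1.18 and 0.87, the latter a bound. The kinase PLK2 was 3.55-fold lower, and 316 on the loaded array against 314 at day 21. TP53INP1, a p53-induced regulator of cell death and autophagy, was 2.88-fold lower on its brightest probe set and at log2 -0.17 on the other (565 to 503).

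**Figure D2:**
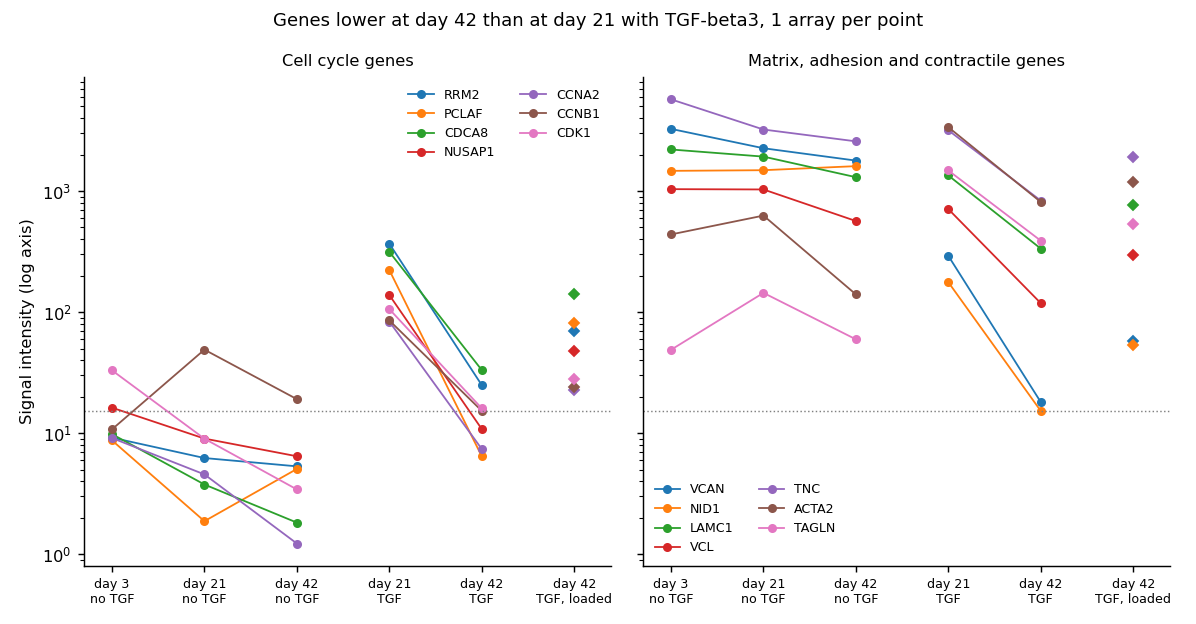
Signal intensity (log axis) on each of the 6 arrays, 1 point per array, for 7 cell cycle genes and 7 matrix, adhesion and contractile genes. Lines join arrays of the same medium, diamonds are the loaded array, and the dotted line is the floor of 15.1. Each gene is lower at day 42 than at day 21 with TGF-beta3, and the loaded array lies between these 2 values for each of them.

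On the authors' scaling none of 8 chondrocyte markers compared was past 2-fold between the days on its brightest probe set. Of all genes that, like these, were over 50 on both arrays, 11.5% were higher and 9.11% lower. Some cartilage matrix genes outside the marker list, such as MIA and MGP (below), were past 2-fold. The markers' median log2 ratio was 0.58 as deposited and 0.01 after quantile normalization. On the spike scaling it was -0.655, and 3 of the 8 were lower. COL2A1, which encodes type II collagen, had a signal of 10475 at day 21 and 20799 at day 42 on its brightest probe set (log2 ratio 0.99, quantile normalized -0.03). Its other 3 probe sets had log2 ratios of 0.29, -0.31 and 0.08. Aggrecan (ACAN), the proteoglycan that gives cartilage its swelling pressure, went from 3896 to 3776 (log2 -0.05), but its dimmer probe sets from 254 to 94.7 and from 223 to 108, log2 ratios of -1.42 and -1.05. The 3 probe sets thus disagree on the size of the difference. On the loaded array all 3 were higher than on the unloaded one, at 6321, 158 and 164.

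HAPLN1, the link protein that stabilises aggrecan on hyaluronan, went from 5466 to 10762 (log2 0.98, quantile normalized 0.13). COMP, which binds collagen fibrils, went from 5762 to 8684 (0.59 and -0.23). Chondroadherin (CHAD), which binds cells and collagen, went from 1604 to 1819, and collagen IX (COL9A1), which coats the fibrils, from 440 to 411. Collagen XI, in the fibril core, went from 7503 to 14611 for COL11A1 (0.96 and -0.02) and from 154 to 230 for COL11A2. For the brightest of these genes the direction depended on the scaling. The fibril collagen COL27A1 was the list's 1 gene past 2-fold, lower from 689 to 221 but 771 on the loaded array. TGFBI, a secreted matrix protein and known TGF-beta target, went from 1647 to 1733. In the aggrecan and hyaluronan list 1 of 7 was higher (HYAL1, below) and 1 lower (VCAN, next).

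Other cartilage proteins differed in direction. Of 10 non-collagen cartilage matrix genes 4 were higher and 1 lower as deposited, and 2 were higher and 2 lower after quantile normalization. The Wnt antagonist FRZB was under the floor at day 21 and 171 at day 42, at least 11.3-fold higher, with 300 on the loaded array. The secreted glycoprotein CHI3L1 went from 800 to 1896. The bright genes MIA and MGP went from 5073 to 11719 and from 5371 to 11471. Their log2 ratios were 1.21 and 1.09, or 0.34 and 0.205 after quantile normalization. Thrombospondin 4 (THBS4), a tendon and cartilage protein that was under the floor without TGF-beta3, was 5.19-fold lower, from 1001 to 193. Versican (VCAN), the large proteoglycan of early, provisional matrix, had the lowest ratio of all genes with both arrays above the floor. It went from 291 to 18.0 (16.1-fold lower), against 2258 and 1785 without TGF-beta3 at the same days, and its other probe sets gave log2 ratios of -1.85 and -1.70, the first with day 42 under the floor. Among small leucine-rich proteoglycans 1 of 8 was past 2-fold, decorin (DCN), from 4406 to 10043 (log2 1.19, quantile normalized 0.38). Biglycan (BGN) and fibromodulin (FMOD), which bind collagen, had log2 ratios of 0.58 and 0.90, or 0.10 and -0.03 after quantile normalization. Lubricin (PRG4), the joint surface lubricant, was lower on its 3 member probe sets, with log2 ratios between -0.43 and -1.49.

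Some genes of hypertrophy and bone appeared at low level by day 42. Of 11 compared, 6 were higher and 1 lower with a median log2 ratio of 1.02, but 3 were over 50 at day 42 alone, COL10A1 and SMPD3 among them, and 1 at day 21 alone. Of the 7 over 50 on both arrays 3 were higher and none lower (median 0.84, quantile normalized 0.11), where 11.5% of all such genes were higher. After quantile normalization 4 of the 11 were higher and 1 lower with a median of 0.20, and the spike scaling put the median at -0.22. COL10A1, which encodes type X collagen, had a signal of 2.06 at day 21 and 107 at day 42, at least 7.07-fold higher, and 748 on the loaded array. SMPD3, a sphingomyelinase needed for mineralisation, went from 8.47 to 107, at least 7.04-fold higher, and was 239 on the loaded array. Without TGF-beta3 both were at or under 15.99. Bone sialoprotein (IBSP), which binds mineral, went from 8061 to 16329 on its bright probe set (log2 1.02, quantile normalized 0.01) but from 180 to 1025 on the other (2.51 and 2.52). That second probe set was under the floor on the 3 arrays without TGF-beta3, where the first lay between 5750 and 7338, so the probe sets did not report the same pattern. Osteopontin (SPP1) went from 1595 to 3853 (log2 1.27, quantile normalized 0.96). Collagenase 3 (MMP13), which degrades type II collagen, was lower on both probe sets, from 106 to 7.06 and from 61.2 to 5.90. Alkaline phosphatase (ALPL) was under the floor of 15.1 at day 21 and had signals of 9.40 and 15.4 at day 42, below the entry threshold. RUNX2 and SOX9, which direct bone and cartilage formation, are not analysed here because no probe set carried their names. Of 3 osteoblast markers compared, IBSP and SPP1 were higher as deposited, while COL1A1 had a log2 ratio of -0.90. After quantile normalization none was higher, and COL1A1 was lower at -1.31.

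**Figure D3:**
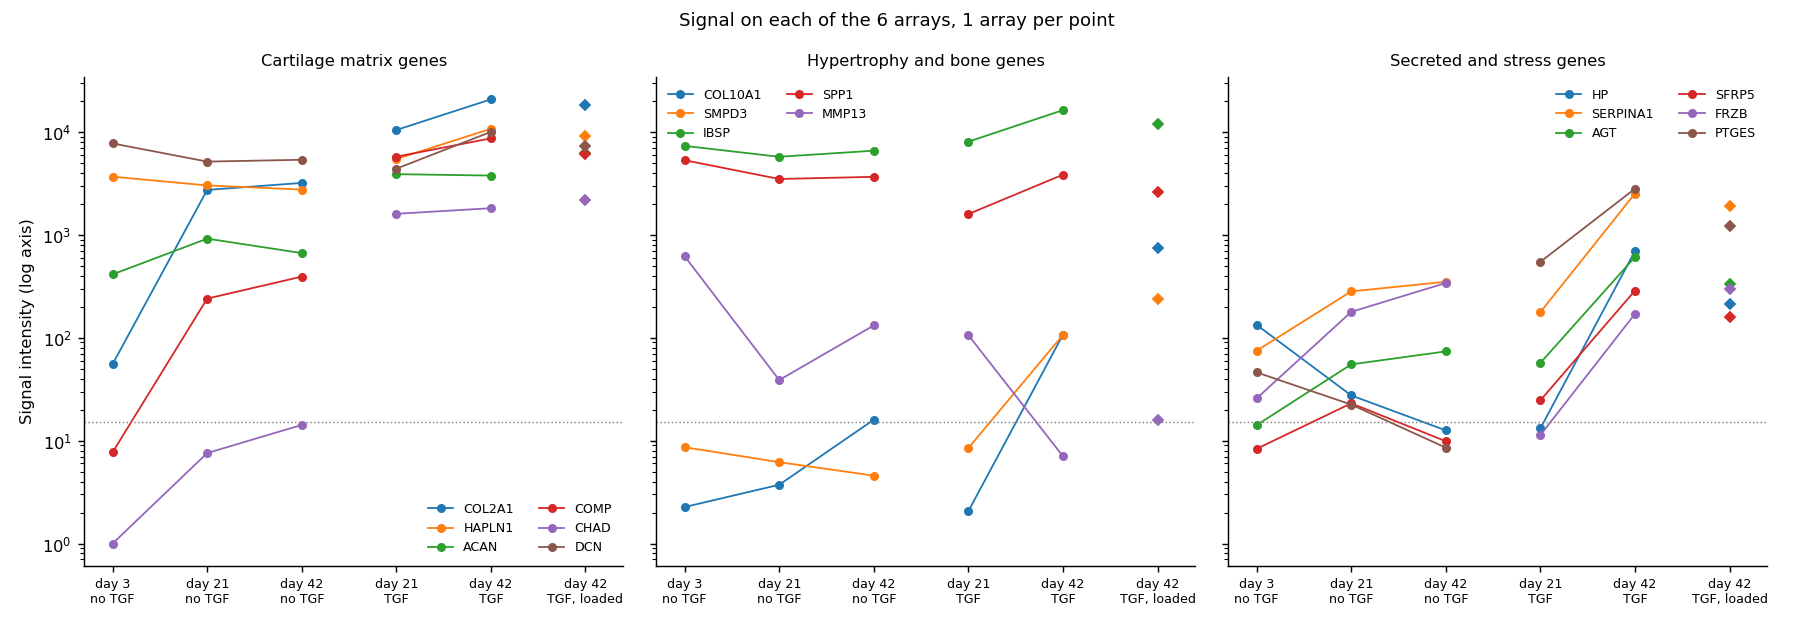
Signal intensity (log axis) on each of the 6 arrays, 1 point per array, for cartilage matrix genes, hypertrophy and bone genes, and genes of secreted or stress proteins. Lines join arrays of the same medium, diamonds are the loaded array, signals under 1 are drawn at 1, and the dotted line is the floor of 15.1. The cartilage genes differ by at most 2.28-fold between the TGF-beta3 days, while COL10A1, SMPD3 and HP leave the floor by day 42.

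Elastic fibre, contractile and basement membrane genes were past 2-fold lower more often than higher. In the fibrous matrix list 2 of 14 were lower and none higher, a share near that of all genes, and the median was 0.01. Tenascin C (TNC), an adhesion-modulating glycoprotein, went from 3175 to 833 (3.81-fold lower) and periostin (POSTN), a matricellular protein of fibrous tissue, from 733 to 291. Type I collagen (COL1A1) went from 5606 to 3009 (log2 -0.90, quantile normalized -1.31) and was 5541 on the loaded array. COL1A2 had 7803 and 7828, and COL3A1 6996 and 10261, log2 ratios of 0.00 and 0.55 that were -0.77 and -0.30 after quantile normalization. Of 12 elastic fibre and crosslinking genes 6 were lower and 1 higher (median -0.99), where 12.4% of all genes were lower. Of the 9 over 50 on both arrays 4 were lower and none higher (median -0.56), where 9.11% of such genes were lower. Fibulin 5 (FBLN5), which assembles elastic fibres, went from 405 to 72.7 (5.57-fold lower). LTBP2, a microfibril protein, was 3.53-fold lower. Fibrillin 1 (FBN1) went from 1264 to 474 and the crosslinking enzyme LOXL4 from 844 to 269. The microfibril protein MFAP2 was the higher one, at 2.04-fold, and log2 0.92 after quantile normalization. Elastin (ELN) gave -0.56 and 0.87 on different probe sets.

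Collagen folding and processing genes differed little. None of 21 compared was past 2-fold in either direction, beside 11.5% higher and 9.11% lower over all genes that, like these, were over 50 on both arrays, and their log2 ratios ran from -0.86 to 0.85.

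In the basement membrane list 3 of 9 were lower and 1 higher, beside 12.4% and 19.2% of all genes. Of its 8 genes over 50 on both arrays, which leave out NID1, 2 were lower and 1 higher. The background for such genes was 9.11% lower and 11.5% higher. Nidogen 1 (NID1), which links laminin to collagen IV, went from 176 to 15.2 (11.6-fold lower), against 1487 and 1606 without TGF-beta3. Laminin gamma 1 (LAMC1) went from 1345 to 334 on its brightest probe set (log2 -2.01), and its other 4 member probe sets were between -0.83 and -1.15. Laminin beta 2 (LAMB2) was 2.33-fold higher. Of 17 smooth muscle and contractile genes 5 were lower and 1 higher, and 3 had a log2 ratio above 0. Of the 16 over 50 on both arrays 5 were lower and none higher. Smooth muscle actin (ACTA2), the contractile actin of myofibroblasts, went from 3368 to 812 (4.15-fold lower) and transgelin (TAGLN), an actin-binding protein, from 1478 to 389 (3.80-fold). Both were also lower at day 42 without TGF-beta3, with log2 ratios of -2.16 and -1.28. PDGFRB, a growth factor receptor of stromal cells, was the higher one, at 2.10-fold and a dim signal of 84.2. Of 29 adhesion and cytoskeleton genes 6 were lower and 2 higher, and of the 27 over 50 on both arrays 5 were lower and 2 higher. Vinculin (VCL), which links adhesions to actin, went from 709 to 118 (5.99-fold lower) and N-cadherin (CDH2) from 69.9 to 1.12, at least 4.62-fold lower, but 93.9 on the loaded array. Cofilin (CFL1) and the actin-capping CAPZB were 2.56-fold and 2.16-fold higher.

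Of 13 genes that build chondroitin sulphate 3 were higher and 2 lower, shares near the 19.2% and 12.4% of all genes. CHPF, which lengthens the chains, went from 66.6 to 282 (4.24-fold higher) and the xylosyltransferase XYLT2, which starts them, from 70.5 to 256 (3.63-fold). UGDH, which makes their sugar precursor, went from 1848 to 659 (2.80-fold lower), and the epimerase DSE, which turns chondroitin into dermatan, was 2.37-fold lower. The hyaluronidase HYAL1 was 2.09-fold higher.

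The counts of signalling genes stand beside the same background of 19.2% higher and 12.4% lower. Of 19 TGF-beta and BMP genes 4 were higher and 3 lower, near those shares. Of the 19, 12 had a log2 ratio below 0 and the median was -0.51. The receptor TGFBR1 went from 402 to 146 (2.75-fold lower) and SMAD5, a BMP signal carrier, from 122 to 50.6. A dimmer SMAD5 probe set, below the entry threshold, went the other way, from 20.8 to 49.3 (log2 1.24). TGIF1, a repressor of SMAD signalling, was 3.09-fold higher, with a second probe set at log2 0.74, and ID3, a target of BMP signals, was 2.59-fold higher. Of 17 Wnt, hedgehog and FGF genes 5 were lower and 1 higher. Both of the following bind Wnt proteins and went opposite ways: SFRP5 from 24.7 to 287 (11.7-fold higher) and SFRP4 from 114 to 14.3, at least 7.51-fold lower. PTHLH, which restrains hypertrophy in the growth plate, went from 102 to 25.97 (3.93-fold lower) and was 76.4 on the loaded array. Among 9 insulin-like growth factor genes 2 were higher and 2 lower. IGF2 and IGF1 left the floor, to 90.4 and 55.3, while the binding proteins IGFBP4 and IGFBP2 were 4.03-fold and 2.85-fold lower.

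Of 23 proteases and inhibitors 4 were higher and 5 lower, beside 19.2% and 12.4% of all genes. The lysosomal cathepsins CTSZ and CTSD were 4.17-fold and 2.79-fold higher. The protease inhibitor TFPI2 went from 548 to 90.01 (6.09-fold lower), and urokinase (PLAU), which activates plasmin, from 567 to 203, with 655 on the loaded array.

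Genes of lipid handling, inflammation and early response were higher more often than lower, as were all genes (19.2% against 12.4%). Of 18 adipocyte and lipid genes 10 were higher and 1 lower, with a median log2 ratio of 1.11 (1.18 after quantile normalization, -0.13 on the spike scaling). The background was 19.2% higher. Of the 16 over 50 on both arrays 8 were higher, where 11.5% of such genes were. The lipase PNPLA2 left the floor to reach 94.8, and ANGPTL4, an inhibitor of lipoprotein lipase, went from 74.9 to 348 (4.65-fold higher). The fat cell carrier FABP4 went from 196 to 434 and lipoprotein lipase (LPL) from 222 to 469, still under their levels of 8822 and 1094 at day 42 without TGF-beta3. The muscle-type carrier FABP3 was the lower one, from 881 to 185 (4.76-fold). In the cholesterol list 3 of 16 were higher and 1 lower. The mevalonate pathway kinases PMVK and MVK were 4.35-fold and 2.96-fold higher, and NSDHL, of a later step, was at least 3.60-fold lower.

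In the inflammation list 9 of 21 were higher and 5 lower, beside 19.2% and 12.4% of all genes. Of the 15 over 50 on both arrays 6 were higher and 2 lower, where 11.5% and 9.11% of such genes were. The median of the 21 was 0.93 as deposited and -0.31 on the spike scaling, which left 2 higher and 8 lower. Haptoglobin (HP), a haemoglobin-binding acute-phase protein, had the largest difference of any named gene: 13.2 at day 21, 697 at day 42 and 214 on the loaded array, at least 46.1-fold higher. PTGES, which makes prostaglandin E2, went from 548 to 2813 (5.14-fold higher), and its partner enzyme PTGS2 from 176 to 802 (4.57-fold). On the 3 arrays without TGF-beta3, PTGES was at most 46.1 and PTGS2 at most 8.67. The monocyte chemokine CCL2 went the other way, from 8365 to 1873 (4.47-fold lower) with a second probe set at log2 -1.87, and IL6 went from 83.6 to 15.9, with 91.4 on the loaded array. Of 16 immediate early genes 5 were higher and 2 lower, and of the 14 over 50 on both arrays 4 were higher and 1 lower. The median of the 16 was 0.43 as deposited and -0.81 on the spike scaling, which left 1 higher and 7 lower. IER3 went from 281 to 1579 (5.62-fold higher), with 3228 on the loaded array, and EGR1 from 74.6 to 309 (4.14-fold). MYC, which drives growth and division, went from 337 to 70.9 (4.76-fold lower) and was also lower without TGF-beta3 (log2 -2.10). The AP-1 subunit FOSL1 was 3.22-fold lower but not on the loaded array.

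Stress lists held genes past 2-fold in both directions, as did all genes (19.2% higher and 12.4% lower). In the oxidative stress list 5 of 29 were higher and 7 lower. The metallothionein MT1A went from 1127 to 335 and MT2A from 1543 to 694, but they were 1870 and 4202 on the loaded array. Probe sets of such similar genes may share transcripts. The quinone reductase NQO1 was 2.73-fold lower, the secreted peroxidase GPX3 3.18-fold higher, and MT3 left the floor to 52.7. Of 27 heat shock and chaperonin genes 3 were lower and 2 higher. The co-chaperone BAG3 was 4.70-fold lower and HSPH1 2.90-fold lower, the latter on all 3 of its member probe sets, while HSPB2 and HSPB8 were at least 7.69-fold and 2.17-fold higher. Of 34 ER folding genes 4 were lower and 3 higher, with CRELD2 3.80-fold and the transcription factor CREB3L2 3.12-fold lower. The secretory pathway proteins ERP29 and SSR2 had log2 ratios of 1.48 and 1.38, or 1.10 and 0.86 after quantile normalization. In the glycolysis and hypoxia list 7 of 29 were higher and 1 lower. The glycolytic regulator PFKFB3 went from 102 to 588 (5.77-fold higher). DDIT4, an inhibitor of mTORC1 induced by stress, went from 2130 to 11008 (5.17-fold). The phosphofructokinase PFKL was 3.05-fold lower, with 124 on the loaded array.

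Ribosomal protein genes show how far bright genes hang on the scaling. Of 46 compared, 31 were higher and none lower as deposited, with a median log2 ratio of 1.04, near the spikes' 1.24. Of 391 genes of any kind with a mean log2 signal of at least 11, 21.5% were higher and 0.767% lower as deposited, and 2.05% and 1.53% after quantile normalization. After quantile normalization 1 was higher and the median was 0.09, and on the spike scaling the median was -0.20. RPS9 had the highest ratio, from 892 to 2557 (log2 1.52, quantile normalized 1.36), followed by RPS29 (1.46 and 0.52). Among 27 translation factor and nucleolar genes 8 were higher and 4 lower, or 3 and 4 after quantile normalization. Both of its lowest genes are nucleolar proteins: GNL3 went from 1176 to 279 (4.22-fold lower) and NOLC1 from 447 to 153, with a second NOLC1 probe set at log2 -0.41. EIF4EBP1, a repressor of translation, was 3.85-fold higher, and the elongation factor EEF1D was 2.82-fold higher, with a quantile normalized log2 ratio of 1.18.

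The respiratory chain and proteasome genes compared were all over 50 on both arrays, where 11.5% of genes were higher and 9.11% lower. Of 46 respiratory chain genes 4 were higher, a share near that background, and none lower (median 0.38). NDUFS7 and NDUFV1 were 2.37-fold and 2.30-fold higher. Of 29 proteasome genes 2 were higher and none lower (median 0.06). PSMD4, a ubiquitin receptor, was 4.07-fold higher on 1 probe set and log2 1.79 on the other, and PSMD13 was 2.37-fold higher. Of 35 lysosome and autophagy genes 6 were higher and none lower (median 0.43), a share of higher genes near the background, with the sulphatase ARSA at 7.70-fold and GABARAPL1, of autophagosomes, at 4.29-fold. Of 16 genes of amino acid supply the mitochondrial MTHFD2 alone was past 2-fold, 2.26-fold lower on its brightest probe set and between log2 -0.17 and -0.57 on the other 3. None of 4 skeletal transcription factors, 6 interferon genes and 1 MHC class II gene compared was past 2-fold.

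**Figure D4:**
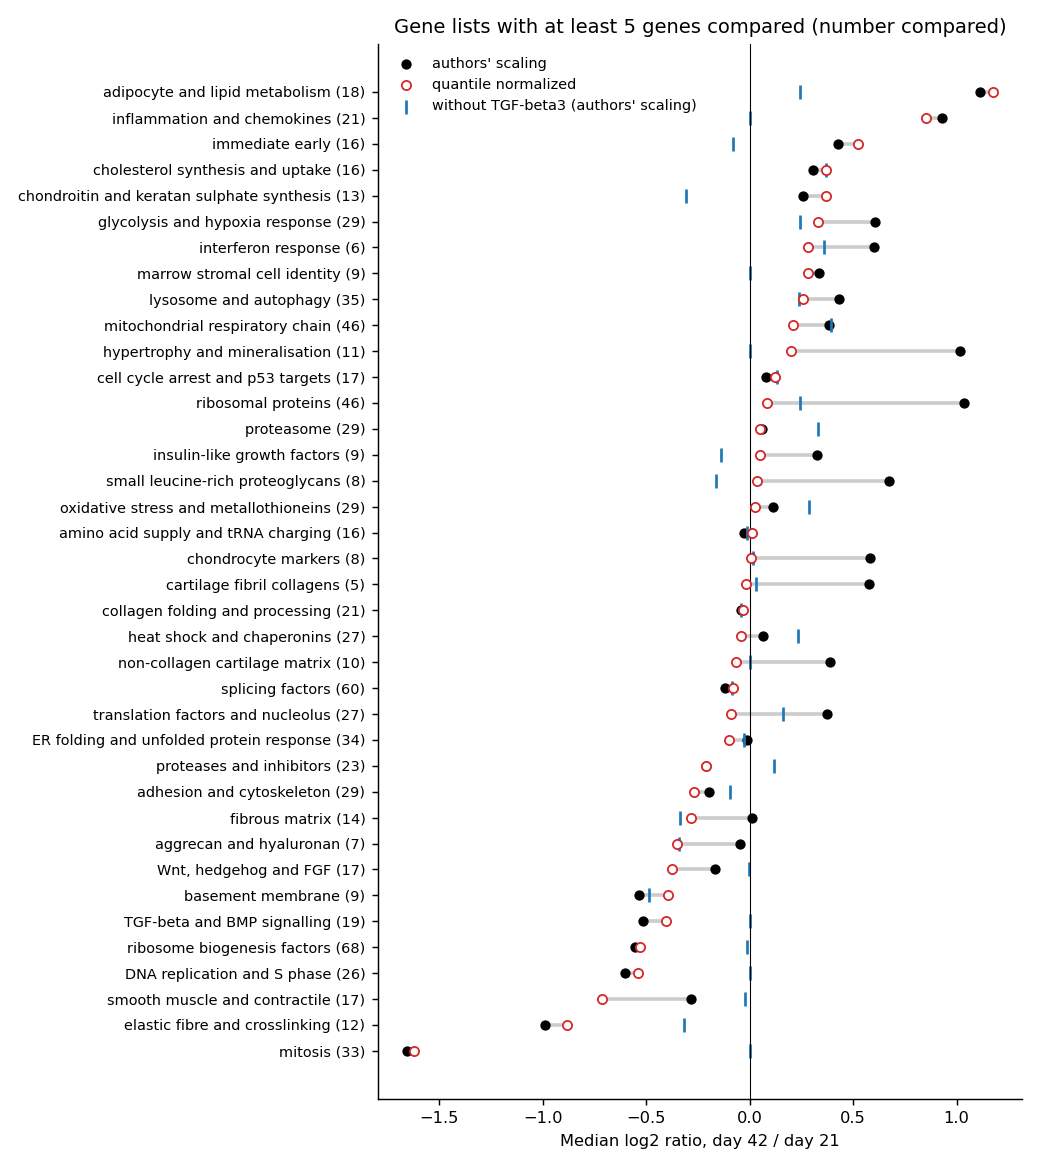
Median log2 ratio of day 42 to day 21 (horizontal axis) for each gene list with at least 5 genes compared, the number in brackets. Black points are the authors' scaling with TGF-beta3, red circles the same after quantile normalization, and blue ticks the same genes without TGF-beta3. The ribosome biogenesis and splicing lists were chosen after values were seen. The mitosis list lies lowest at -1.65, and lists of bright genes such as ribosomal proteins move by the scaling from 1.04 to 0.09.

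Blood cell and endothelial markers were mostly dim on both arrays. Smooth muscle and adipocyte lists were not: of 22 smooth muscle genes with a named probe set 16 and 17 were over 50 at days 21 and 42 (summed signal 30621 and 22272), and of 33 adipocyte genes 16 and 18 (11453 and 15129). Their part in the results was not tested. Of 20 macrophage and blood cell markers with a named probe set, 15 were under the floor at day 21 and 9 at day 42, and their summed signal was 231 and 540, against 11578 and 15949 without TGF-beta3 at the same days. Of the 4 over 50 on either array, CORO1A and LAPTM5, known from leukocytes, left the floor to 108 and 76.7, and S100A12, a myeloid protein, went from 51.9 to 23.4. Of 12 endothelial markers 9 and 7 were under the floor, with 1 over 50, at log2 -0.88. Chondrocyte markers had 8 of 9 over 50 on both arrays, and their summed signal was 35314 and 61097. Of 7 osteoblast markers 3 were over 50 on both. Of 9 stromal cell identity genes 2 were higher and none lower. They were PDGFRB and CD200, a surface glycoprotein that went from 34.8 to 163.

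The genes with the largest differences under every scaling were of many kinds. Most of them, named here and below, passed the entry threshold only on their brighter day, so their entry fixed the direction. The exceptions were SERPINA1, AGT, GSK3A, IQSEC1, LTV1 and EBD, which passed it on both arrays. Beside HP, SFRP5 and FRZB, the highest ratios included that of the protease inhibitor SERPINA1, a liver acute-phase protein. Its 2 probe sets went from 178 to 2527 and from 153 to 2639, 14.2-fold higher on the first, and the loaded array had 1907 and 1654. Angiotensinogen (AGT), the precursor of angiotensin, went from 57.0 to 610 (10.7-fold), with 337 on the loaded array. DDIT4L, a relative of the mTORC1 inhibitor DDIT4, went from 20.3 to 243 (11.9-fold), and was 1902 and 1716 without TGF-beta3.

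The transcription factor ETS1 went from 47.3 to 433 (9.15-fold higher), with its other probe sets at log2 3.12 and 0.10. IRF2, which binds interferon-response elements, was 10.6-fold higher with its other probe set at 3.80, a bound. TLE3, a corepressor, was 9.52-fold higher but had 66.9 on the loaded array, nearer to the 39.7 of day 21 than to the 378 of day 42. The kinase GSK3A, the transporter SLCO3A1, the potassium channel KCNK5 and MADD were between 8.63-fold and 10.4-fold higher, though another MADD probe set had a log2 ratio of 1.37. TCRA, a T cell receptor chain, went from 18.9 to 195 on its brightest probe set. Its other 3 member probe sets were higher too, with log2 ratios of 3.36, 1.98 and 1.61, the first pair of them bounds, and the rest of its 24 probe sets were below the entry threshold. TCOF1, a nucleolar protein, and RARA, a retinoic acid receptor, left the floor to 253 and 200, at least 16.7-fold higher and, for RARA, at least 13.2-fold. A second RARA probe set, above the floor on both arrays, went from 28.3 to 73.4 (log2 1.37).

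Among the lowest, besides VCAN, RRM2, NID1 and CDCA8, were ZC3H8, a zinc finger protein (516 to 38.8, 13.3-fold lower, second probe set at log2 -2.66, a bound) and the RNA-processing protein BCLAF1 (354 to 28.0). The loaded array had 204 and 210 for this pair, between the unloaded days. LTV1, which helps to export small ribosomal subunits, went from 662 to 73.0 (9.07-fold lower, second probe set at log2 -2.28). DOCK10, a guanine nucleotide exchange factor, went from 188 to 16.3, against 1605 and 955 without TGF-beta3. IQSEC1 was 9.11-fold lower on its brightest probe set and higher by log2 1.58 on another, so its probe sets disagree. The bovine beta-defensin EBD, an antimicrobial peptide, went from 1059 to 141 but was 960 on the loaded array. ZNF800 was 8.04-fold lower, and ARHGEF40 and PPP1R10 were under the floor at day 42, at least 11.3-fold lower and, for PPP1R10, at least 9.87-fold.

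Fewer probe sets were past 2-fold between the same days without TGF-beta3. The comparison of days 21 and 42 without it shares no array with the one above. By the same entry rule, 3.36% of its 10581 probe sets were higher and 9.69% lower, and 87.0% stayed within 2-fold, against 64.3% with TGF-beta3. The median log2 ratio of the spikes in that pair was 0.10, against 1.24. Of the 1119 genes higher with TGF-beta3, 42 (3.75%) were also at least 2-fold higher without it, where 2.88% of all 5831 genes were. Nearly as many of them, 41, were at least 2-fold lower without it, where 4.63% of all were. Of the 725 lower with TGF-beta3, 59 (8.14%) were also lower without it, where 4.63% of all were. Another 22 of the 725 were at least 2-fold higher without it, where 2.88% of all were. Across the 5831 genes the correlation of both log2 ratios was r = 0.10, a description over genes that share these 4 arrays. Whether any gene's time course differs between the media could not be tested with 1 array each.

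**Figure D5:**
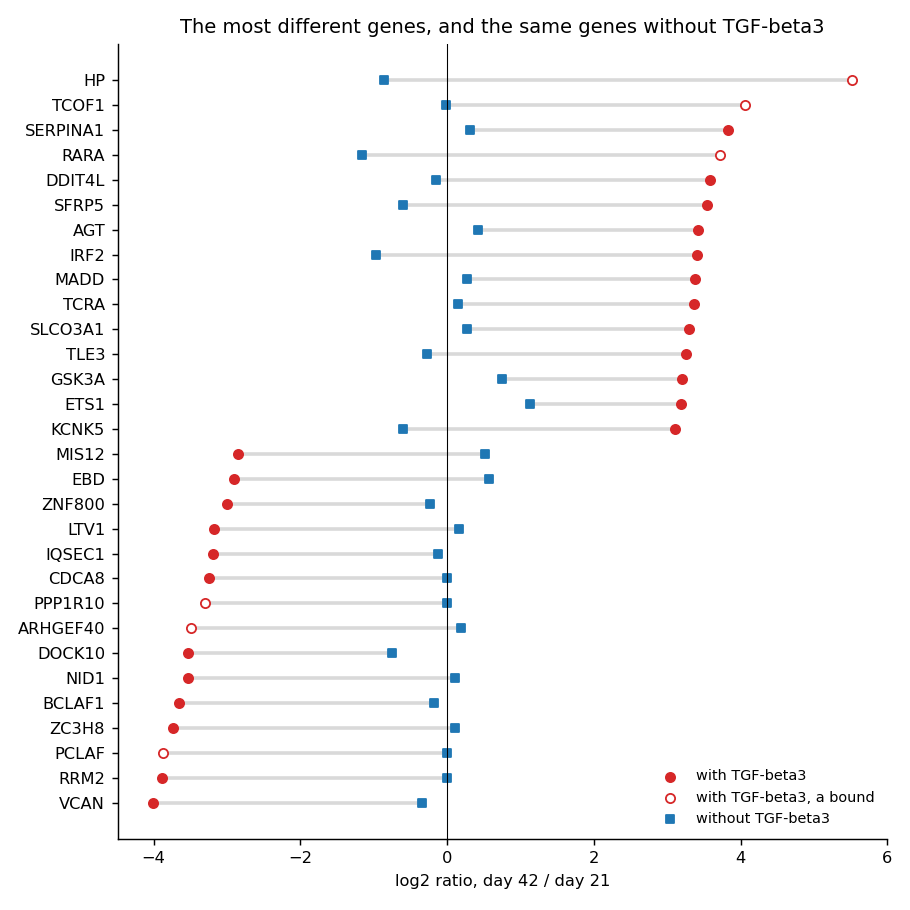
Log2 ratio of day 42 to day 21 (horizontal axis) for the 15 highest and 15 lowest genes named by the rule, with TGF-beta3 (red, open where 1 side is under the floor and the value is a bound) and without it (blue squares). With TGF-beta3 they span -4.01 to 5.53, which is what they were chosen for. Without it they lie between -1.16 and 1.13, and genes under the floor on both days, such as RRM2 and CDCA8, are drawn at 0.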

How the data were processed

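The deposited values are linear signal intensity per probe set of Affymetrix bovine arrays, made by the authors with MAS5 per the submitters' processing notes (its version and scaling target are not given in the sources used). RNA was amplified with the NuGEN ribo-SPIA method per the labels' protocols. The authors' scaling was kept. Of 24128 probe sets 112 controls were left out. Gene names came from the platform annotation: 13292 of the rest had 1 gene, 86 several and 10638 none. Of the named, 13263 were checked through Entrez identifiers with no symbol changed. Each gene was represented by its brightest probe set (mean log2 signal, all 6 arrays). Signals under the floor of 15.1 were set to it, and log2 ratios were called at 2-fold. A fold with 1 side under the floor is a bound, written "at least". There were no replicates and no test. The rule named the 12 highest and 12 lowest genes measured on both arrays and the 3 highest and 3 lowest bounds, all past 2-fold under 4 scalings, the 2 highest and 2 lowest of each of 41 lists, and 15 cartilage genes. A further 22 genes, 2 lists, the threshold example DCP1A, and SOX9 were named after values were seen. So were UBE2C, BIRC5, STMN1, MIA and MGP, which are outside the counts of named genes. Members and lists were chosen with earlier results of these data known. The scripts were tested on simulated data. Computations ran in Python 3.11.15 with pandas 2.3.3 and numpy 2.4.6, and plots in matplotlib 3.10.9.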

Additional observations from a re-analysis of the deposited data

Results flagged for a closer look

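For 5 named genes the difference between days 21 and 42 was at least 2-fold with TGF-beta3 and at least 2-fold the opposite way without it, as deposited and after quantile normalization. Over all genes as deposited, 41 of the 1119 higher and 22 of the 725 lower with TGF-beta3 went the opposite way without it. The difference between the media was not tested, with 1 array for each of the 4 conditions. MMP13, a collagenase, had log2 ratios of -2.81 with TGF-beta3 (a bound) and 1.76 without. FABP3, a fatty acid carrier, had -2.25 and 1.23. PLK2, a polo-like kinase, had -1.83 and 1.12, the latter a bound. MTHFD2, a mitochondrial folate enzyme, had -1.18 and 1.21. RARA, a retinoic acid receptor, had 3.73 and -1.16, both bounds, with 1.37 on its other probe set with TGF-beta3.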

How the results depend on the processing

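The counts of 2162 higher and 1950 lower probe sets moved most with the spike scaling, to 321 and 6802. A floor of 50, or an entry signal over 100, left 1238 higher. Restricting to signals over 50 on both arrays gave 844 and 966, a 3-fold threshold 1094 and 885, and a 1.5-fold threshold 3403 and 3167. Counted by gene they were 1119 and 725, or 1148 and 725 taking each gene's median over probe sets. The other alternatives stayed within 1.5 times. On the spike scaling 26 of the 27 list medians above 0 fell below it, and 23 named genes did, COL2A1 and HAPLN1 included. Those past 2-fold as deposited were the medians of hypertrophy and mineralisation (-0.22), ribosomal proteins (-0.20), adipocyte and lipid metabolism (-0.13) and osteoblast markers (-0.22), and among genes HYAL1 (-0.18), DCN (-0.05), MFAP2 (-0.21), CDKN2C (-0.03), NDUFV1 (-0.04), HSPB8 (-0.12), PDGFRB (-0.17), CAPZB (-0.12), LAMB2 (-0.02), IBSP (-0.22), FABP4 (-0.09) and LPL (-0.16). With the loaded day 42 array in place of the unloaded one, which differs in loading too, 14 named genes turned, ACAN and COL9A1 (within 2-fold as deposited) and 12 that were past 2-fold: COL27A1 (0.16), PLAU (0.21), CDKN2C (-0.25), PLK2 (0.01), PFKL (0.41), IL6 (0.13), FOSL1 (0.23), CDH2 (0.42), MT1A (0.73), NQO1 (0.13), S100A12 (0.95) and MT2A (1.44). The cause was not tested. No paired analysis was possible because each condition had 1 array and the labels carry no replicate numbers, so no array could be left out either. A planned motif count in promoters was not run, since no promoter sequence was at hand. Signals near the floor limit the size of every bound.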

Other observations

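Ribosome assembly factors and splicing factors were listed after their values had been seen, so their counts describe these arrays and support nothing. Of 68 ribosome biogenesis genes compared, 18 were lower and 3 higher at day 42 with TGF-beta3, with a median log2 ratio of -0.55 (-0.53 after quantile normalization), beside 12.4% lower and 19.2% higher over all genes. Their median was -0.01 without TGF-beta3. NOP14, of the small subunit processome, went from 102 to 14.2, at least 6.71-fold lower, although a dimmer probe set went from 12.8 to 43.9. GRWD1, a ribosome-associated histone chaperone, was 6.38-fold lower (150 to 23.5), although a dimmer probe set went from 0.81 to 28.9. UTP25 and MAK16, of small and large subunit assembly, were 6.30-fold and 5.36-fold lower, and BRIX1, of large subunit assembly, 4.44-fold lower. Of 60 splicing genes 10 were lower and 4 higher, with a median of -0.12. The serine/arginine-rich splicing factors SRSF6 and SRSF3 went from 1276 to 205 (6.22-fold lower) and from 2535 to 547 (4.63-fold lower).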
